A study of Mus musculus with 5 samples.

Results

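The genes described here are 10 glycosyltransferases that build gangliosides or attach sialic acid to other glycans: Ugcg, B4galt6, St3gal5, St8sia1, B4galnt1, St3gal2, St3gal1, B4galnt2, St6gal1 and St8sia4. Every probe set annotated to exactly 1 of them was taken, which gave 23 of the 22626 probe sets that are not array controls, and 10 of 12393 genes. Nothing was filtered out for low signal, so all 23 are described. The genes were picked with their values on these arrays already known, St8sia1 and B4galnt2 for their large differences among them. Their differences are therefore given as a description with no test.

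The series compared ID8 cells, a mouse ovarian cancer line of epithelial origin, in 2 media. The ascites group (2 arrays, replicates 2 and 3) was grown for 7 days in DMEM with 10% ascites fluid taken from mice that carried ID8 tumours. The FBS group (3 arrays, replicates 1, 2 and 3) was the parental line in DMEM with 10% fetal bovine serum. No source used here says whether the FBS culture lasted as long, whether the ascites medium also held serum, or whether replicates came from separate cultures, so the errors below may be technical.

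Gangliosides are glycosphingolipids that carry sialic acid, sit in the outer leaflet of the plasma membrane and are made stepwise in the Golgi. Glucose and then galactose are added to ceramide, a first sialic acid makes GM3, a second makes GD3, and later enzymes extend GM3 or GD3 into the a-series and b-series. GD2 and GD3 are known as surface antigens of tumours of neural crest origin and of some breast cancer stem cells. Other sialyltransferases cap N-glycans or O-glycans of proteins, or build polysialic acid, and use the same activated sugar, CMP-sialic acid.

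Values are the deposited log2 array signals, and differences are ascites minus FBS on that log2 scale with their standard error (SE) from limma, a linear model fitted to all 22626 probe sets. Array medians lay between 7.39 and 7.47. FBS replicates 1 and 2 differed by an SD of only 0.130 over probe sets, whereas FBS replicate 3 differed from them by 0.411 and 0.406, the ascites arrays from each other by 0.236, and ascites from FBS arrays by 0.495 to 0.564. As a guide to low signal, 104 probe sets of 93 genes of olfactory and other chemosensory receptors, keratin-associated proteins, defensins and protamines were used, whose 95th percentile was 6.53 in ascites and 6.40 in FBS. A probe set at or below these limits was not shown to lie above background. Keratins 8, 18 and 19, Wt1, Upk3b and Msln were above the limits on all arrays. The epithelial markers Cdh1 and Epcam were at or below them in both groups. Keratin 7 (Krt7) was below the limits on both ascites arrays (5.37 and 5.12) and on FBS replicate 3 (5.66). On FBS replicates 1 and 2 it was above them. Of the 12 probe sets of these epithelial and mesothelial markers 10 were lower in ascites and 2 fell (Krt18 and Krt19), and their linear signals summed to 33436 to 41701 in ascites and 59567 to 105115 in FBS. Whether that shift has a part in the results below was not tested. Of 15 leukocyte and macrophage probe sets 0 passed the threshold in limma (0 also at an unadjusted p under 0.05). The pan-leukocyte marker Ptprc lay between 3.34 and 3.51 on all arrays, and the linear signals of that list summed to 661 to 717 in ascites and 638 to 689 in FBS. Of the 15, 12 were at or below the limits in both groups. The macrophage marker Cd68 was above the limit in ascites only (mean 6.74, FBS mean 6.22, difference 0.52), with overlapping groups. Cd3e was just above it in FBS only (mean 6.41). One probe set of Csf1r was just above the limits in both groups (means 6.55 and 6.62). The linear signals of 11 fibroblast and endothelial probe sets summed to 6545 to 8979 in ascites and 7437 to 20734 in FBS. Nearly all of that sum was decorin (Dcn, ascites mean 12.86 and FBS mean 13.81), and the other 10 probe sets were at or below the limits in both groups. None of the 11 passed in limma, 0 also at an unadjusted p under 0.05, and the part of that shift in the results below was not tested. Of 2 erythroid probe sets, both at or below the limits, 0 passed in limma (0 also at an unadjusted p under 0.05).

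In ascites, transcripts of the GM3 synthase St3gal5 and the GD3 synthase St8sia1 were lower than in FBS, and so was St3gal1. The more strongly hybridising probe sets of St6gal1 (-0.73, SE 0.24) and St8sia4 (-1.62, SE 0.66) were also lower, with wider spread among the arrays of a group. B4galt6 was lower at 1 of its 4 probe sets (-0.79, SE 0.09). A single probe set of B4galnt2 was far higher in ascites. The first enzyme of the pathway, Ugcg, and the terminal sialyltransferase St3gal2 differed little. Fewer cells with a transcript and less of it per cell cannot be told apart in such bulk RNA. Ascites and FBS arrays were fully apart at 12 of the 23 probe sets, 3 of them higher and 9 lower in ascites, while 36.5% of all probe sets had groups without overlap (19.3% higher and 17.2% lower in ascites). At limma's Benjamini-Hochberg adjusted p under 0.05, 5 of the 23 passed, 1 higher and 4 lower, against 4.34% of all probe sets (2.38% risen and 1.96% fallen). As the choice of genes used these differences, nothing is read from those counts. A difference of 1 or more in either direction was seen at 6 of the 23, beside 4.80% of all probe sets. Among the 23 the median difference was -0.06, with a range of -2.84 to 3.38, and among all probe sets the median was 0.01, with a 5th to 95th percentile range of -0.73 to 0.65.

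**Figure D1:**
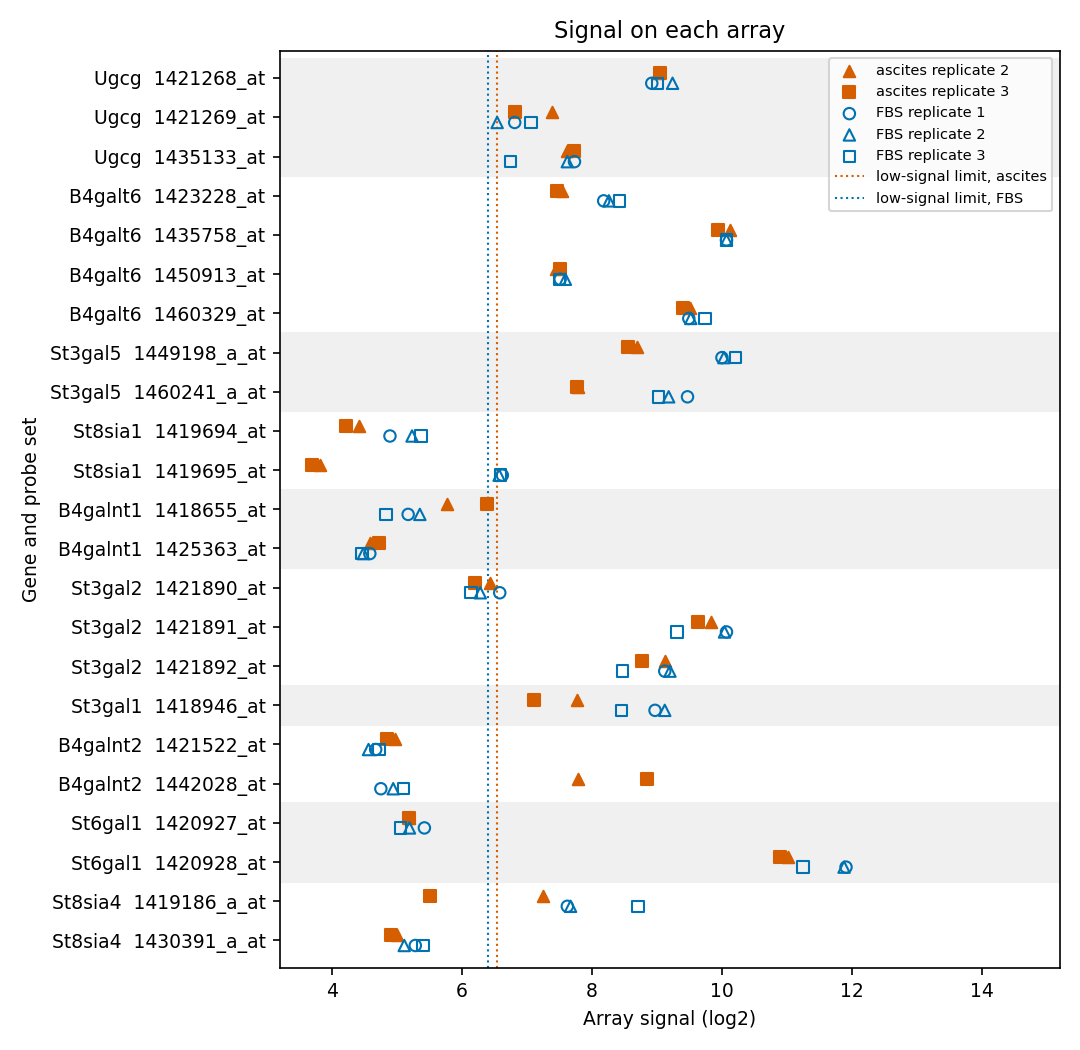
Log2 array signal (x axis) of each of the 23 probe sets (rows, grouped by gene), with filled orange symbols for the 2 ascites arrays, open blue symbols for the 3 FBS arrays, and dotted lines at the low-signal limits of 6.53 (ascites) and 6.40 (FBS). The ascites arrays lie left of all FBS arrays for both probe sets of St3gal5 and of St8sia1, and right of them for B4galnt2.

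Ugcg, glucosylceramide synthase, adds glucose to ceramide and commits it to the pathway. Its strongest probe set, 1421268_at, read 9.01 and 9.05 in ascites, against 8.92, 9.24 and 9.01 in FBS, a difference of -0.03 (SE 0.11). The groups overlapped there and at the other 2 probe sets, which differed by 0.30 (SE 0.25) and 0.31 (SE 0.34). The last of these, 1435133_at, stood at 7.62 and 7.73 in ascites and at 7.73 and 7.62 in FBS replicates 1 and 2, and FBS replicate 3 was lower, at 6.75. Without that array the difference was 0.00.

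B4galt6 encodes a lactosylceramide synthase, which adds galactose to glucosylceramide. Its 4 probe sets did not move alike. The probe set 1423228_at read 7.54 and 7.46 in ascites and 8.18, 8.26 and 8.42 in FBS, a difference of -0.79 (SE 0.09) with no overlap. The other 3 had overlapping groups and differed by -0.03 (SE 0.07), -0.06 (SE 0.06) and -0.13 (SE 0.10). A lower level of this transcript was thus seen with 1 of 4 probe sets. B4galt5, the other lactosylceramide synthase, was at or below the low-signal limits, with an ascites mean of 4.42 and an FBS mean of 4.58.

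St3gal5 encodes GM3 synthase, which adds the first sialic acid to lactosylceramide and so stands at the entry to nearly all gangliosides. Its probe set 1449198_a_at read 8.70 and 8.55 in ascites, against 10.00, 10.03 and 10.21 in FBS. Its second probe set, 1460241_a_at, read 7.79 and 7.77 in ascites, against 9.47, 9.18 and 9.02 in FBS. Both ascites arrays lay below all FBS arrays at both probe sets, and all 5 arrays were above the low-signal limits. The 2 probe sets gave nearly the same difference, -1.46 (SE 0.10) and -1.44 (SE 0.15), or 2.74-fold and 2.72-fold lower in ascites. They were annotated from the same source sequence and may share part of the transcript.

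St8sia1 encodes GD3 synthase, which adds a second sialic acid to GM3 and opens the b-series. Its probe set 1419695_at had the largest decrease of the 23, reading 3.81 and 3.69 in ascites, against 6.62, 6.57 and 6.59 in FBS. The FBS arrays lay close together, with an SD of 0.03, and included replicate 3, which stood apart over all probe sets. The difference was -2.84 (SE 0.06). The FBS mean of 6.59 lay only just above the low-signal limit and the ascites mean of 3.75 below it, so that difference is not exact and no fold is given. The second probe set, 1419694_at, was at or below the limits in both groups, with 4.42 and 4.21 in ascites, against 4.89, 5.23 and 5.37 in FBS. It was also lower in ascites without overlap, by a difference of -0.85 (SE 0.17).

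The 3 genes whose centred log2 profile over the 5 arrays lay closest to that of St8sia1 were Scel, Srebf2 and Mgp. Scel encodes sciellin of the cornified envelope, and was at a root mean square distance of 0.07. It read 7.09 and 6.85 in ascites, against 9.75, 9.82 and 9.70 in FBS (difference -2.79, SE 0.09). Srebf2, the sterol-responsive transcription factor SREBP2, followed at 0.15 and Mgp, matrix Gla protein, at 0.16. With 5 arrays, any gene that is lower by about as much on both ascites arrays comes close.

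B4galnt1 encodes the GM2/GD2 synthase, which adds N-acetylgalactosamine to GM3 or GD3. Both of its probe sets were at or below the low-signal limits in both groups. At 1418655_at the signal was 5.77 and 6.38 in ascites, against 5.17, 5.35 and 4.83 in FBS, which gave a difference of 0.96 (SE 0.25). The ascites arrays were both above the FBS arrays there. At 1425363_at the groups met at 4.58, which ascites replicate 2 and FBS replicate 1 both read, and the difference was 0.14 (SE 0.07). A transcript level above background was not shown for this gene in either medium.

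St3gal2 and St3gal1 add sialic acid to terminal galactose. St3gal2 is known as a main enzyme that makes GD1a and GT1b from their precursors, and St3gal1 acts mostly on core 1 O-glycans. The strongest of 3 St3gal2 probe sets, 1421891_at, read 9.83 and 9.63 in ascites, against 10.07, 10.04 and 9.31 in FBS. The ascites arrays lay between the FBS arrays there, and the differences of the 3 probe sets were -0.08 (SE 0.28), 0.02 (SE 0.28) and -0.02 (SE 0.16). St3gal1, with 1 probe set, read 7.77 and 7.11 in ascites, against 8.97, 9.12 and 8.45 in FBS. Both ascites arrays were below all FBS arrays, with a difference of -1.41 (SE 0.30), or 2.65-fold lower. FBS replicate 3 was the lowest FBS array and ascites replicate 3 the lower ascites array, and the difference ranged from -1.74 to -1.08 as single arrays were left out.

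B4galnt2 encodes an enzyme that adds N-acetylgalactosamine to sialylated galactose and makes the Sda (Cad) antigen on glycoproteins and some glycolipids. Its probe set 1442028_at had the largest difference of the 23 in either direction. It read 7.78 and 8.84 in ascites, against 4.75, 4.94 and 5.10 in FBS, a difference of 3.38 (SE 0.35). All FBS arrays were below the low-signal limit and both ascites arrays above it, so the difference is not exact and no fold is given. The ascites arrays differed from each other by 1.06. The second probe set, 1421522_at, was at or below the limits in both groups, at 4.96 and 4.85 in ascites and 4.67, 4.56 and 4.72 in FBS. Its difference of 0.26 (SE 0.08) had the same sign, without overlap, but was far smaller. The large increase in B4galnt2 signal was therefore measured by 1 of its 2 probe sets. The 2 were annotated from different source sequences, and the one from a RefSeq mRNA, 1421522_at, was the one without signal above the limits. Why they differ was not tested.

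The 3 genes with the profile most like that of B4galnt2 1442028_at were Stbd1 at a root mean square distance of 0.18, Reep6 at 0.19 and Serpinf1 at 0.27, over the same 5 arrays. Stbd1, a glycogen-binding protein, read 9.32 and 10.31 in ascites, against 5.84, 6.11 and 6.54 in FBS. Reep6, of the REEP family of endoplasmic reticulum proteins, had a difference of 3.07 (SE 0.26). Serpinf1, which encodes the secreted factor PEDF, had a difference of 3.65 (SE 0.33). In all 3, ascites replicate 3 lay above ascites replicate 2, as in B4galnt2. As they were chosen for likeness over these same arrays, that order is no separate result.

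St6gal1 caps N-glycans with sialic acid in alpha-2,6 linkage. Its probe set 1420928_at read 11.01 and 10.89 in ascites, against 11.91, 11.88 and 11.25 in FBS. Both ascites arrays lay below all FBS arrays, but FBS replicate 3 was nearer to the ascites arrays than to the other FBS arrays. The difference was -0.73 (SE 0.24), or 1.66-fold lower, and -0.95 without FBS replicate 3. Against that array alone, the difference was -0.30. The second probe set was at or below the limits (difference -0.03, SE 0.12).

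St8sia4 is a polysialyltransferase, which builds long sialic acid chains on the neural cell adhesion molecule and a few other proteins. Its probe set 1419186_a_at had the widest spread within a group of the 23, with 7.25 and 5.51 in ascites, against 7.62, 7.67 and 8.71 in FBS. The groups did not overlap, yet ascites replicate 2 lay only slightly below FBS replicates 1 and 2. The ascites mean of 6.38 was below the low-signal limit, so the difference of -1.62 (SE 0.66) is not exact and no fold is given. It became -0.75 without ascites replicate 3 and -2.49 without ascites replicate 2. At the second probe set, below the limits in both groups, it was -0.31 (SE 0.11).

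**Figure D2:**
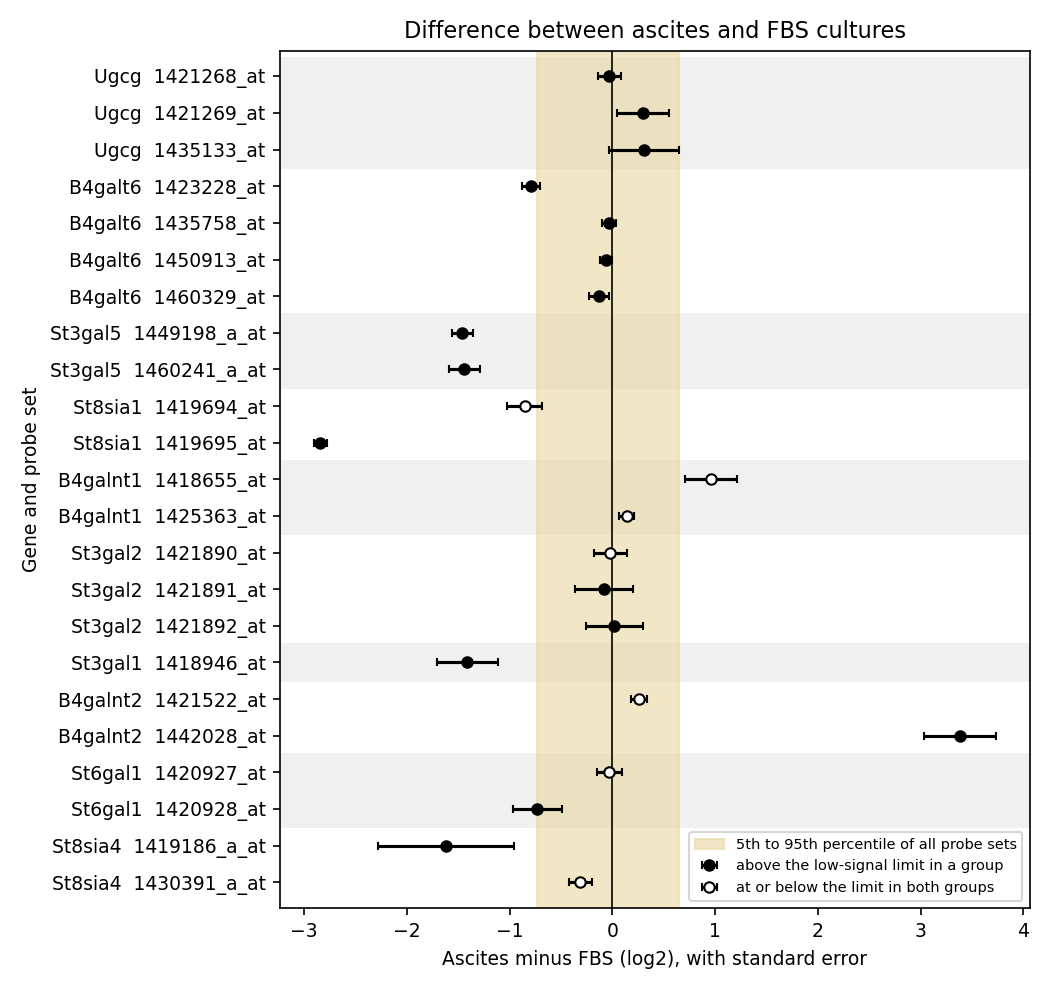
Difference in log2 signal, ascites minus FBS (x axis), of the 23 probe sets with bars of 1 SE. Open points were at or below the low-signal limits in both groups, and the shaded band spans the 5th to 95th percentile of all probe sets (-0.73 to 0.65). St8sia1 1419695_at (-2.84) and B4galnt2 1442028_at (3.38) lie farthest from 0, and the 2 St3gal5 probe sets nearly coincide at -1.46 and -1.44.

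Agreement among probe sets of 1 gene varied. More than 1 probe set was present for 9 of the 10 genes. Probe sets agreed closely for St3gal5 and for St3gal2, in each gene annotated from a single source sequence, so this agreement is not independent. The St3gal2 probe set 1421890_at was also at or below the limits in both groups. By contrast, the probe sets of B4galnt2 differed by 3.12 and those of St8sia1 by 1.99 in their difference between media. Those of Ugcg, B4galt6, B4galnt1, St6gal1 and St8sia4 lay between. Over 4956 genes with several probe sets, the median of this range was 0.21 and the 90th percentile 0.66. The ranges of B4galt6, B4galnt1, St6gal1 and St8sia4 were also wider than that percentile. Only 3 genes, B4galnt2 among them, had a range at least as wide as B4galnt2, and 13 at least as wide as St8sia1. In B4galnt2 and St8sia1 the probe set that moved less was at or below the low-signal limits in both groups. In all, 7 of the 23 probe sets were at or below the limits in both groups, 2 in ascites only, 1 in FBS only and 13 in neither.

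FBS replicate 3 lay at least 0.5 from the mean of FBS replicates 1 and 2 at 15.0% of all probe sets and at 6 of the 23. These were 2 probe sets of St3gal2, at -0.74 and -0.69, and 1 each of Ugcg, St6gal1, St3gal1 and St8sia4. For St3gal1 its offset of -0.60 went the same way as that of ascites (-1.61 from the same 2 arrays), and for St6gal1 its offset was -0.64 beside -0.95 for ascites. For St8sia4 it went the other way, at 1.07 beside -1.26. Its offset was -0.01 for St8sia1 1419695_at, 0.20 and -0.30 for St3gal5, and 0.25 for B4galnt2 1442028_at. Against FBS replicate 3 alone, their differences were -2.84 for St8sia1, -1.59 and -1.24 for St3gal5 and 3.21 for B4galnt2.

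**Figure D3:**
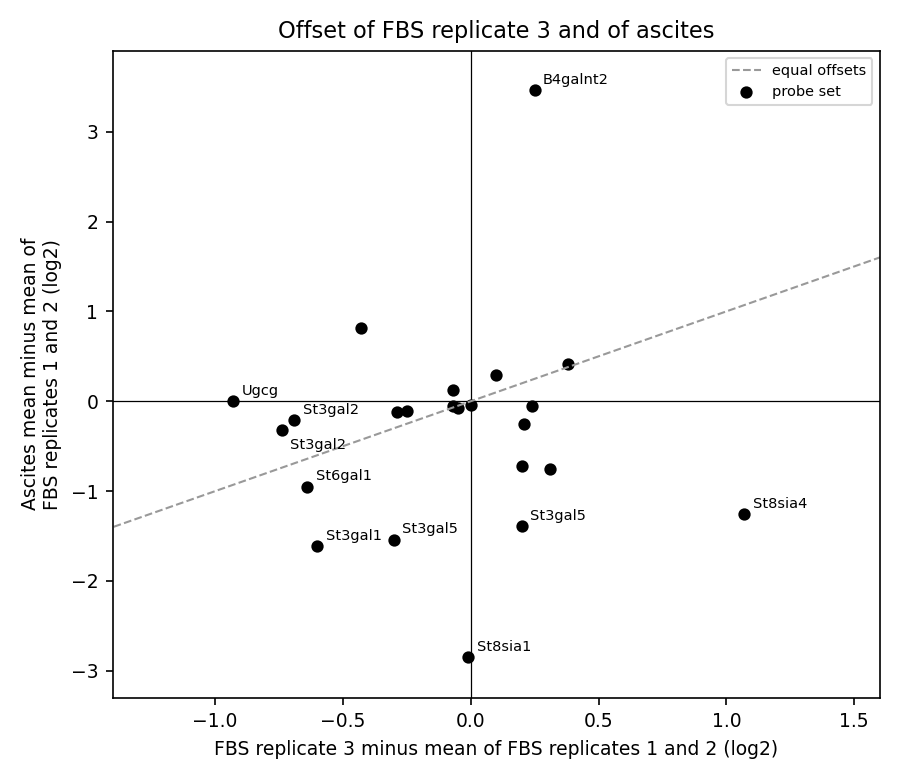
For each of the 23 probe sets, the offset of FBS replicate 3 (x axis) and of the ascites mean (y axis) from the mean of FBS replicates 1 and 2, both in log2 signal, with a dashed line where they are equal. Points of St8sia1 (-0.01 and -2.85) and B4galnt2 (0.25 and 3.46) lie near the vertical axis and far from the line, and those of St6gal1 (-0.64 and -0.95) and St3gal2 lie nearer to it.

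The start regions of St8sia1 and St3gal5, lower in ascites, of B4galnt2, higher, and of Ugcg, which differed little, are shown to set genes with unlike differences side by side. RefSeq windows of 300 bases (GRCm38.p6), 250 before and 50 after 1 annotated start site, were at hand for 6 of the 10 genes. Capitals mark matches, on either strand, to the GC box GGGCGG, the CCAAT box CCAAT or the antioxidant response core TGACNNNGC.
St8sia1 (chr6:142964403-142964702, minus strand): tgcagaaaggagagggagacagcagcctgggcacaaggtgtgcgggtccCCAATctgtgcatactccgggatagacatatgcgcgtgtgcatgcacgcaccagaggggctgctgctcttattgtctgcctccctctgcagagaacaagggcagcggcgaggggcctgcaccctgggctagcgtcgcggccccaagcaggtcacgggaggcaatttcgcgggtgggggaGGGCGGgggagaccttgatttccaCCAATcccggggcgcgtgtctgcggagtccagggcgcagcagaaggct
St3gal5 (chr6:72097358-72097657, plus strand): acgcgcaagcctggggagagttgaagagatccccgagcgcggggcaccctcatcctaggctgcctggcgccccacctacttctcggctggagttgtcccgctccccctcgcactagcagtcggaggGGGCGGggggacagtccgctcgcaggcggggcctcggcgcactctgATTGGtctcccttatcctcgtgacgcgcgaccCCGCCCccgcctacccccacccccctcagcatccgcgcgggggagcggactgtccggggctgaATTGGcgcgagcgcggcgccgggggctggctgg
B4galnt2 (chr11:95914822-95915121, minus strand): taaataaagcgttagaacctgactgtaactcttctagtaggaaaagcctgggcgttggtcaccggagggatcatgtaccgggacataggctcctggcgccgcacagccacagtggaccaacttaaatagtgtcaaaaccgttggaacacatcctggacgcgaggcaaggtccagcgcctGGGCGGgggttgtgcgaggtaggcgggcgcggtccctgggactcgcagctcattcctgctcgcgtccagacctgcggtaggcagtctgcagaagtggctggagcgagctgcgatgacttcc
Ugcg (chr4:59189300-59189599, plus strand): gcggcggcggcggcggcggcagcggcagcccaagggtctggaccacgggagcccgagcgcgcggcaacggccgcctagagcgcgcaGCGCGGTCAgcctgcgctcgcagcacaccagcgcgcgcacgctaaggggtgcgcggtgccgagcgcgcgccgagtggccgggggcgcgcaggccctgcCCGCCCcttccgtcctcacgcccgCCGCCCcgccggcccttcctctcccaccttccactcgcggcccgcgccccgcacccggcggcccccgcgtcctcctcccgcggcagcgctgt

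The window of St8sia1 held 1 GC box, at -22, counting the start site as 0 and giving the first base of each match, and 2 CCAAT boxes, at -201 and 2. That of St3gal5 held 2 GC boxes, at -124 and -46, and 2 CCAAT boxes, at -78 and 17. B4galnt2 had 1 GC box at -71 and no CCAAT box, and Ugcg had 2 GC boxes at -66 and -42, no CCAAT box and 1 antioxidant response core at -164. Over all 8 windows of the 6 genes (3 of them of St6gal1 and 1 of St8sia4), 6 held a GC box and 6 a CCAAT box, where 35.7% and 37.4% of all 32851 RefSeq windows of this length did. An antioxidant response core was found in 1 of the 8, against 12.4% of all windows. The AP-1 letters TGANTCA, which overlap a CCAAT box there, were found in 1 window of St6gal1, against 7.81%. The TATA letters TATAAA (13.6% of all windows) and the amino acid response letters TGATGCAA (0.895%) were in 0 of the 8. GC content was 64.7% in St8sia1, 72.7% in St3gal5, 59.0% in B4galnt2 and 81.3% in Ugcg, beside a median of 52.7% over all windows. A match is a description of letters, and the arrays do not tell which start site ID8 cells use. For St8sia1 the RefSeq gene body begins upstream of the window.

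Other genes of the pathway were taken from 5 lists, with 53 of 66 listed genes measured by 85 probe sets. Of these, 7 fell and 0 rose at an adjusted p under 0.05 in limma, or 8.24%, where 1.96% of all probe sets fell and 2.38% rose. The lists were chosen with earlier results of these data known, so nothing is read from that share. At an unadjusted p under 0.05 there were 23 of 85, beside 22.9% of all probe sets, and the median difference was -0.05, beside 0.01. All 7 calls were lost without FBS replicate 1 or FBS replicate 2, where 0 of all 22626 probe sets passed either. Without FBS replicate 3, 18 of the 85 fell and 0 rose, or 21.2%, beside 15.7% of all probe sets called in either direction. Leaving out an ascites array leaves 1 in that group, so no count is given for those fits. With FBS replicates 1 and 2 averaged as 1 sample, 0 passed in limma, with 17 at an unadjusted p under 0.05.

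The list of ceramide supply and sphingomyelin synthesis, which also holds the glycolipid transfer protein Gltp, made up 4 of the 7. Ceramide is the lipid on which Ugcg acts. The 21 probe sets in this list came from 12 genes. Of the 21, 17 were lower in ascites, 4 fell and 0 rose, where 1.96% of all probe sets fell and 2.38% rose. The median difference was -0.44, beside 0.01 over all probe sets. Because the lists were chosen with earlier results known, nothing is read from these counts or from those of the lists below. Cers4, a ceramide synthase for long saturated acyl chains, read 5.79 and 5.61 in ascites, against 8.40, 8.57 and 7.86 in FBS (difference -2.58, SE 0.24, limma adjusted p = 0.0244). Both ascites arrays were below all FBS arrays, and the ascites mean of 5.70 was below the low-signal limit. Its other 2 probe sets differed by -1.01 (adjusted p = 0.0914) and -0.81 (adjusted p = 0.0593) in limma and did not pass. Cert1, the ceramide transfer protein that carries ceramide to the Golgi for sphingomyelin synthesis, read 5.48 ± 0.04 (SD, n = 2) in ascites and 6.49 ± 0.07 (SD, n = 3) in FBS. Its difference was -1.01 (SE 0.06, limma adjusted p = 0.0173). The ascites mean was below the low-signal limit and the FBS mean only just above the FBS limit of 6.40, so that difference is not exact. That fall was measured at 1 of its 3 probe sets, 1420383_a_at. The brightest, 1420384_at, lay above the limits in both groups, differed by -0.50 (limma adjusted p = 0.348) and did not pass, nor did 1449847_a_at (difference -0.02, limma adjusted p = 0.881). Gltp, a cytosolic glycolipid transfer protein, was 1.70-fold lower (10.62 ± 0.02 in ascites, SD, n = 2, and 11.38 ± 0.10 in FBS, SD, n = 3, limma adjusted p = 0.0253). Sptssa, a small subunit of serine palmitoyltransferase, was 1.28-fold lower (limma adjusted p = 0.0477). Its limma adjusted p was 0.0744 with an intensity trend and 0.0503 after quantile normalization, and its call was lost in both.

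Among 20 probe sets of glycosphingolipid breakdown genes 2 fell and 0 rose. Galc, galactosylceramidase, which cleaves galactose from galactosylceramide, read 8.64 and 8.32 in ascites, against 9.55, 9.64 and 9.40 in FBS at 1452907_at (difference -1.05, SE 0.13, limma adjusted p = 0.0368). Its other 2 probe sets, at or below the limits in both groups, differed by -0.37 (adjusted p = 0.117) and -0.18 (adjusted p = 0.493) in limma and did not pass. Glb1, the lysosomal beta-galactosidase that degrades GM1, read 8.50 and 8.55 in ascites, against 9.41, 9.48 and 9.28 in FBS (difference -0.86, SE 0.08, limma adjusted p = 0.0241). The groups were apart for both, and the median of the list was -0.04.

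Of 18 probe sets of other glycosphingolipid glycosyltransferases, 14 were at or below the low-signal limits in both groups. St6galnac6, which adds alpha-2,6 sialic acid to make alpha-series gangliosides, was the 1 that fell, with 9.76 and 9.79 in ascites, against 10.56, 10.61 and 10.31 in FBS (difference -0.72, SE 0.11, limma adjusted p = 0.0498). That call is at the edge of the threshold, and with an intensity trend its limma adjusted p was 0.062. In the list of other sialyltransferases 0 of 11 probe sets passed in limma and 2 had an unadjusted p under 0.05. St3gal6, of the ST3Gal family, had the smallest p, with a difference of -0.34 (SE 0.09, limma adjusted p = 0.135), and its second probe set differed by 0.19. In the list of sialic acid supply and modification 0 of 15 passed in limma and 2 had an unadjusted p under 0.05. Nanp, the phosphatase that releases free sialic acid, had the smallest p (difference -0.23, SE 0.06, limma adjusted p = 0.107). The differences of this list lay between -0.42 and 0.19.

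**Figure D4:**
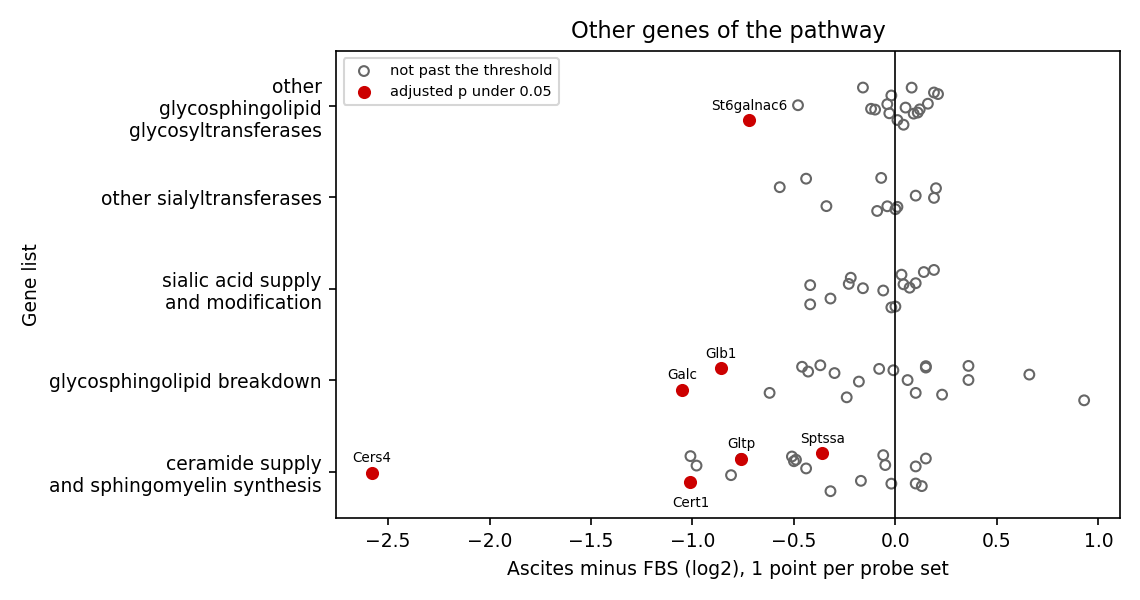
Difference in log2 signal, ascites minus FBS (x axis), of 85 probe sets in 5 lists of other pathway genes (rows, points spread vertically for legibility). Filled red points had a limma adjusted p under 0.05. All 7 lie left of 0, and 4 of them are in the ceramide list.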

How the data were processed

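Total RNA of ID8 cells was hybridised to an Affymetrix mouse array. Per the submitters' processing notes, Affymetrix Expression Console was used. Which version and which summary method were run is not stated in them. Deposited values are log2 signals, 1 per probe set and array, as judged from their range, and were used with no further normalization. Of 22690 probe sets, 64 controls were left out. The platform annotation gave 1 gene for 20380 and several for 691, and 1555 were not listed. Of the 20380, 20351 were found by Entrez identifier in RefSeq (GRCm38.p6).

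All 22626 probe sets were fitted by limma's lmFit and eBayes (limma 3.58.1, R 4.3.3, two-sided tests, 3 residual and 1.31 prior degrees of freedom), adjusted by Benjamini-Hochberg with a threshold of 0.05. On simulated data for ascites minus FBS (22626 probe sets) it recovered 58% of 100 changes of 1 and 81% of 100 changes of 2 on the log2 scale, with 7 false calls. That noise was drawn independently for every array, whereas FBS replicates 1 and 2 lay close together and replicate 3 apart. The simulation therefore does not give the recovery or false calls in the real data.

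Members and lists were chosen with earlier results of these data known. Every member is described. From each other list, up to 4 called genes with the largest difference are named, or the gene with the smallest p. For St8sia1 and B4galnt2 the 3 nearest profiles are named. Protein methyltransferase genes, caught by a symbol prefix meant for protamines, were removed from the low-signal set after the data were seen. Alternatives were quantile normalization, leaving out each array, averaging FBS replicates 1 and 2, a replicate block, an intensity trend, array weights, 1 probe set per gene, and leaving out the dimmest 25%.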

Additional observations from a re-analysis of the deposited data

How the results depend on the processing

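The sign of the difference was the same in all settings run for 16 of the 23 probe sets of the ganglioside and sialic acid genes. The other 7, those of St3gal2, 1 of B4galt6, 1 of St6gal1 and 2 of Ugcg, reached 0 or changed sign in some setting. St8sia1 1419695_at ranged from -2.90 to -2.78, St3gal5 from -1.53 to -1.38 and from -1.54 to -1.32, and B4galnt2 1442028_at from 2.85 to 3.91. Counts of calls moved far more. Over all probe sets, 982 passed, beside 654 of 12393 with 1 probe set per gene and 3728 with array weights. With FBS replicates 1 and 2 averaged, 0 passed (3680 at an unadjusted p under 0.05 in limma). Leaving out 1 FBS array gave 0 without replicate 1, 0 without replicate 2 and 3559 without replicate 3. The 7 pathway calls became 15 with array weights and 0 with FBS replicates 1 and 2 averaged (17 unadjusted), and 0 to 18 when 1 FBS array was left out. The 5 calls among the 23 became 3 of 10 with 1 probe set per gene and 0 with averaging (9 unadjusted), and 0 to 6 when 1 FBS array was left out. In the limma fit with the replicate block, 0 probe sets passed in all (3417 unadjusted), 0 in the pathway lists (14) and 0 of the 23 (7). Correlations of deviations from the group means between same-numbered arrays were 0.03 (replicate 2) and 0.05 (replicate 3). With 2 ascites arrays the deviations of each mirror the other, and FBS replicates 1 and 2 lay close together. The 2 correlations are therefore nearly 1 value, and they cannot decide whether the arrays were paired. The numbers were not taken as pairs in the main fit. Where calls were lost the cause was not tested. The values carry no detection call, and the number of arrays limits the precision.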
